A study of Mus musculus with 12 samples.

Results

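The collagen genes measured here are those whose array symbol reads Col, a number, the letter a and a number, and each gene is read from its brightest probe set (mean over all arrays). There were 42 such genes among 18193 genes with a probe set: 11 fibrillar, 6 basement membrane, 5 type VI and 20 other collagens. Of these, 31 were bright enough to be tested among 12654 genes, namely 10 of the 11 fibrillar, 6 of the 6 basement membrane, 3 of the 5 type VI and 12 of the 20 other collagens. Not tested were Col2a1, Col6a4, Col6a5, Col9a1, Col9a2, Col9a3, Col10a1, Col13a1, Col17a1, Col25a1 and Col26a1, whose mean values lay at or under the low-value filter of 6.253 on the log2 scale.

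The series has 12 mouse arrays in 4 groups of 3: knockout of Stat5a and Stat5b with growth hormone (KO+GH), wild type with GH (WT+GH), knockout without GH (KO) and wild type without GH (WT). STAT5A and STAT5B are transcription factors that carry the growth hormone signal from the cell membrane to the genome, and the series title asks how they bear on muscle growth and fibre composition. By the treatment field the mice lacked both genes in blood cells, and the labels used here give no promoter for the deletion, strain, sex, age, GH dose or duration. Each title has an animal number of its own, so arrays were taken as separate animals. The numbers of all animals with GH start with the letter M, and those of the animals without GH do not. GH and this numbering cannot be told apart, and what the numbering stands for is not known here. "Untreated" in this text means only that the label names no GH. Where nothing else shows this, p-values measure only the spread between these samples.

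Collagens are triple helices of 3 chains that give connective tissue its strength. In muscle, fibroblasts make most of the fibrillar types I, III and V, which form the fibres of the endomysium, perimysium and epimysium. Type IV forms the sheet of the basement membrane around each muscle fibre and capillary, and type VI forms beaded filaments that tie that sheet to the fibres outside it. The other types include anchoring fibrils, collagens that sit on fibril surfaces and collagens of the basement membrane zone.

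Values are MAS5 signals, a linear brightness per probe set that the authors scaled to a common trimmed mean of 500 on each array. Signals of different probe sets cannot be set against each other. As a check of the tissue, the 8 skeletal muscle fibre markers had summed signals of 307800 to 445100 over the 12 arrays. Stat5b, the targeted gene with the larger difference, had signals of 333, 378 and 374 in KO+GH muscle, against 1694, 1792 and 1896 in WT+GH muscle. Without GH it had 498, 372 and 415 in KO muscle, against 2955, 2640 and 2866 in WT muscle. Arrays with GH also differed from arrays without GH in control measures. The geometric mean signal of the spiked poly-A controls lay between 265 and 319 on the GH arrays, against 84 to 111 on the arrays of untreated mice (2.92-fold). For the beta actin 3 prime over 5 prime ratio, the GH arrays spanned 0.887 to 1.01 and the untreated ones 0.805 to 0.864. For each of these a two-sided exact permutation test gave p = 0.0022, the smallest it can give, and 0.0032 after adjustment over 3 measures. The third, the Gapdh 3 prime over 5 prime ratio, spanned 0.795 to 0.86 on the GH arrays and 0.834 to 0.877 on the untreated ones, slightly the other way (exact permutation p = 0.16). GH treatment and whatever sets these control measures cannot be told apart, which touches every GH comparison given here. In bulk muscle, fewer cells of a type and less RNA per cell cannot be told apart either.

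The knockout muscle kept some signal of both targeted genes, with Stat5a at 130 to 361 over the 6 KO arrays, against 384 to 730 over the 6 WT arrays. Which cells of the muscle lost the genes is not settled by the treatment field, which names blood cells, together with these values from whole muscle.

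The genotype comparison with GH asks how the knockout's muscle differs from wild-type muscle when both are treated. Col7a1, which encodes the anchoring fibril collagen known from skin, was lower in KO+GH muscle, and no other collagen gene passed the threshold. Its signals were 355, 403 and 342 in KO+GH muscle, against 743.5, 713 and 803 in WT+GH muscle. All 3 KO+GH values lay under all 3 WT+GH values, a separation seen in 11 of 31 collagen genes (35.5%) and 30% of all genes. Col7a1 fell by 0.99 ± 0.152 on the log2 scale (SE, 1.99-fold lower), with an adjusted p of 0.000852 by limma across all genes. That is 1 of 31 collagen genes tested, or 3.23%, where 4.53% of all genes passed in either direction, 2.42% higher and 2.11% lower. The lower call held in each of 26 alternative settings, with log2 values of -1.06 to -0.88 and adjusted p of 5.04e-05 to 0.00723.

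Without GH the same gene had signals of 306, 212 and 350 in KO muscle, against 465, 382 and 445 in WT muscle. The groups did not overlap (as in 16.1% of collagen and 13.2% of all genes), but the difference did not pass (log2 fold change -0.56 ± 0.152, limma adjusted p = 0.096). The adjusted p was 0.0332 with array quality weights and 0.0368 without KO 3. Averaged over both treatments, Col7a1 was lower in KO by 0.78 ± 0.108 on the log2 scale (adjusted p = 0.000324). This mean genotype effect shares its arrays with both genotype comparisons and adds no samples to them. Only 1 probe set measures Col7a1.

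The start of Col7a1 is shown because it was the one collagen gene called between genotypes within a treatment, and STAT5 proteins bind DNA. RefSeq places the 300 bases at chr9:108953336-108953635 on the plus strand of GRCm38.p6, from 250 before the start to 50 after it. Capitals mark a GC box, GGGCGG. The STAT motif TTCNNNGAA was not among these letters on either strand.
Col7a1: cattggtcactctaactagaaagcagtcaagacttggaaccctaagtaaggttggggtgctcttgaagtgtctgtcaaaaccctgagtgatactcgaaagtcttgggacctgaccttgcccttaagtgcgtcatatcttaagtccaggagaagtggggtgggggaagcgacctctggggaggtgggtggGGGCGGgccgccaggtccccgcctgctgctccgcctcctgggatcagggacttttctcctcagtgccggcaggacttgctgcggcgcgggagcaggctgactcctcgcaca

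Such windows were at hand for 33 of the 42 collagen genes, and Col1a1, Col12a1, Col14a1 and Col22a1 were among those without one. Among the 36 windows of these 33 genes, TTCNNNGAA was found in 1 (2.78%), against 8.3% of 32851 windows of genes outside chr18. The STAT6 form of the motif, with a spacer 1 base longer, was found in 0, against 6.95% of all windows. The GC box GGGCGG was found in 22 (61.1%), against 35.7% of all windows, and TATAAA in 5 (13.9%), against 13.6%. Both strands were searched, a motif found is no sign of binding, and a motif outside these windows would be missed.

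Without GH, 0 of 31 collagen genes passed limma's threshold between KO and WT muscle, where 1.45% of all genes did (0.774% higher and 0.68% lower). By limma 4 collagen genes had an unadjusted p under 0.05. The share of all genes at that unadjusted cutoff was not counted, and 1.45% is not it. Apart from Col7a1, the fold changes ran from -0.45 for Col12a1, a collagen on fibril surfaces, to 0.35 for Col8a1, a short-chain collagen of vessel walls. Col22a1, known as a collagen of the junction between muscle and tendon, had signals of 328, 292 and 269 in KO muscle, against 391, 429 and 383 in WT muscle. Those groups did not overlap (log2 fold change -0.41 ± 0.122, adjusted p = 0.139). Averaged over both treatments Col22a1 was lower by 0.33 ± 0.0861 on the log2 scale (adjusted p = 0.0384). With Col7a1 it made 2 of 31 collagen genes called lower in that average, or 6.45%, where 2.47% of all genes were called lower, 2.88% higher and 5.34% in either direction. The Col22a1 call was lost in 14 of 25 alternatives, and its 3 probe sets gave -0.24 to 0.43 for KO+GH against WT+GH.

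Fibrillar, basement membrane and type VI collagens showed no called difference between genotypes, with 0 of 10, 0 of 6 and 0 of 3 genes past the threshold both with and without GH. The class medians with GH were 0.15, -0.13 and -0.00 on the log2 scale, and without GH 0.05, -0.04 and -0.01, beside all-gene medians of -0.02 and -0.00. For the other collagens, Col7a1 among them, the medians were lower, at -0.14 with GH and -0.22 without. There 7 of 12 genes were negative with GH and 10 of 12 without, where 46.9% and 49.3% of all genes were positive. The class mean per array was 8.208 to 8.272 in KO+GH, against 8.337 to 8.426 in WT+GH muscle. Without GH it was 8.099 to 8.145 in KO, against 8.226 to 8.409 in WT muscle. These class means were not tested. Col7a1, at -0.99 with GH and -0.56 without, is 1 of the 12 genes averaged, and means without it were not computed. Col1a2, the second chain of type I collagen, had 18830, 18920 and 20150 in KO+GH muscle, against 19560, 16700 and 17960 in WT+GH muscle. Without GH its signals were 19240, 19060 and 20030 in KO muscle, against 18260, 17790 and 19070 in WT muscle. The ranges overlapped in both comparisons (log2 fold changes 0.10 ± 0.0746 and 0.08 ± 0.0746). Col6a2 and Col6a1, 2 chains of type VI collagen, differed by -0.08 ± 0.117 and -0.00 ± 0.107 with GH.

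**Figure D1:**
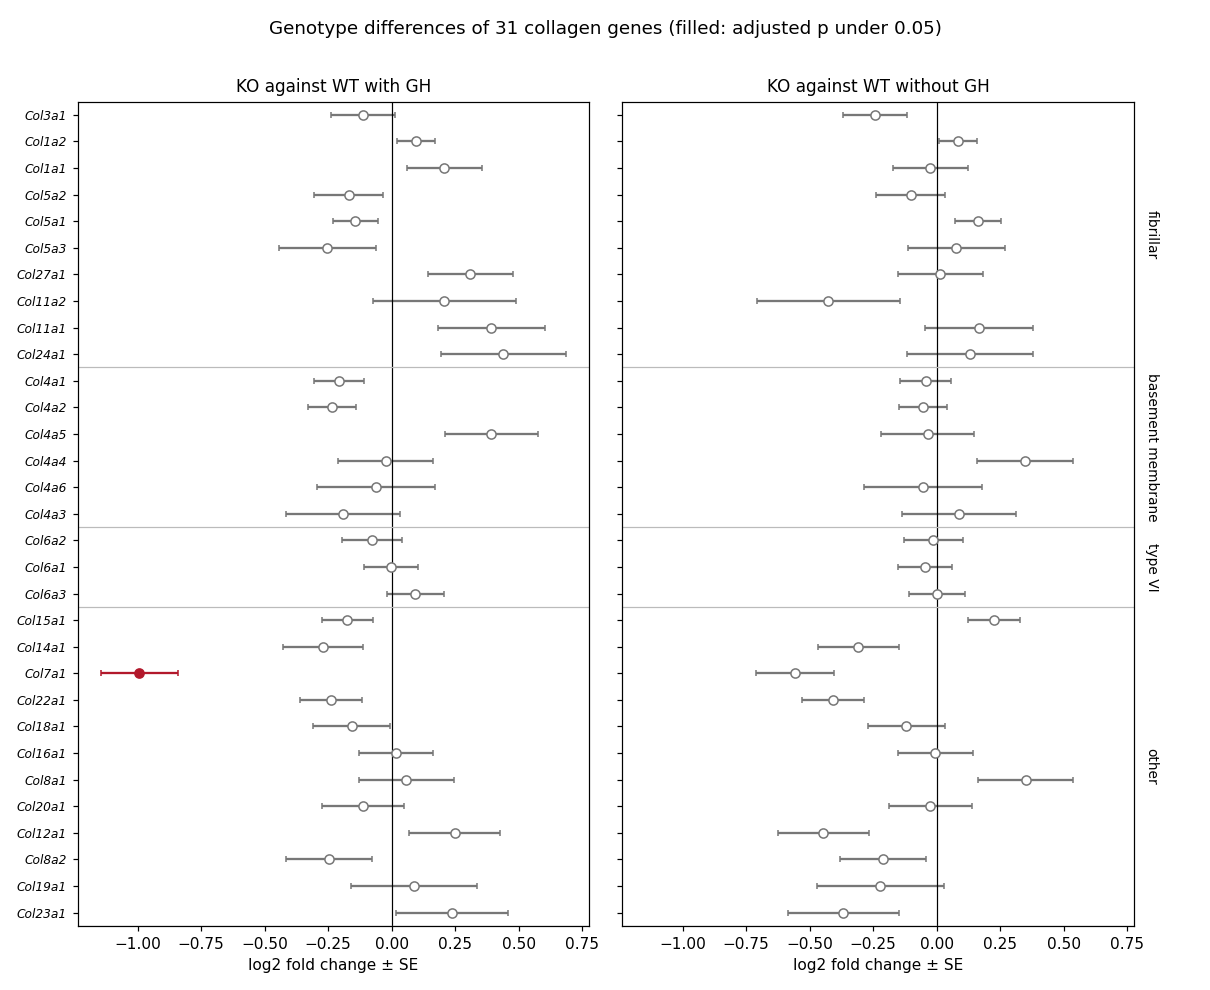
Log2 fold change (x axis, bars are SE) of the 31 collagen genes tested, grouped by class down the page, for KO against WT with GH (left) and without GH (right). Filled red points passed an adjusted p of 0.05; Col7a1 with GH, at -0.99, is the 1 filled point.

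The 2 chains that pair in the widespread form of type IV collagen, Col4a1 and Col4a2, lie head to head on chromosome 8, and their windows share 78 bases (chr8:11312777-11312854, GRCm38.p6, RefSeq). They are shown because 1 start region serves both genes, so their values can be read side by side. Capitals mark GGGCGG or its complement CCGCCC, and each window is given on its own gene's strand (Col4a1 minus, chr8:11312777-11313076, and Col4a2 plus, chr8:11312555-11312854).
Col4a1: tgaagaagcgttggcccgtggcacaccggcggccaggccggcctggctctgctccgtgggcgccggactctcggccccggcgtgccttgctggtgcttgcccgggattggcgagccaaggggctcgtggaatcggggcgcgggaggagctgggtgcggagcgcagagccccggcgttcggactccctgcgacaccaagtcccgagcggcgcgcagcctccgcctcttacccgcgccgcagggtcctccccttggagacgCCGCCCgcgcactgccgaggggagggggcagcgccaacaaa
Col4a2: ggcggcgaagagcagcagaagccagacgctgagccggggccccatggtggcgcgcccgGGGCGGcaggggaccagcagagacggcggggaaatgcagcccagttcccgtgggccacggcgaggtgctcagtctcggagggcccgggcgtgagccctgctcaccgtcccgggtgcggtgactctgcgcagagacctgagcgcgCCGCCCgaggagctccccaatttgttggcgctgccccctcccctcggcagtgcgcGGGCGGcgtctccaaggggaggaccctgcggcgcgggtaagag

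With GH, Col4a1 had signals of 6606, 6316 and 6247 in KO+GH muscle, against 7305, 7396 and 7431 in WT+GH muscle. Col4a2 had 3168, 3459 and 3372 in KO+GH muscle, against 4288, 3898 and 3624 in WT+GH muscle. For these probe sets all KO+GH values lay under all WT+GH values, yet neither gene passed (log2 fold changes -0.21 ± 0.0991 and -0.24 ± 0.0951, adjusted p = 0.314 and 0.215). Fitted on the GH arrays alone, both passed: the adjusted p was 0.0222 for Col4a1 and 0.0475 for Col4a2. Among 8 endothelial markers, Kdr was higher (0.70 ± 0.127, in 26 of 26 alternatives) and Esam lower (-0.35 ± 0.0951, a call lost in 12 of 26) in KO+GH than in WT+GH muscle. Their part in the type IV values was not tested. The second Col4a1 probe set had 1687, 2094 and 1980 in KO+GH muscle, against 1906, 1951 and 2174 in WT+GH muscle, which overlap (-0.07). Without GH the pair differed by -0.04 and -0.05 between KO and WT, and the second Col4a1 probe set by 0.25.

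The GH comparisons ask which genes differ between treated and untreated muscle of 1 genotype. In WT muscle 8 of 31 collagen genes passed the threshold, or 25.8%, where 19.1% of all genes did. Of these 4 rose, namely Col7a1, Col20a1, Col22a1 and Col4a1, where 7.33% of all genes rose. The 4 that fell were Col15a1, Col4a5, Col6a3 and Col3a1, where 11.8% of all genes fell. In KO muscle 8 of 31 passed as well, where 24.3% of all genes did. There Col24a1, Col11a2, Col12a1, Col22a1 and Col20a1 rose and Col15a1, Col5a3 and Col6a3 fell, where 8.93% of all genes rose and 15.4% fell. By direction, 16.1% of the collagen genes rose and 9.68% fell in KO, and 12.9% rose and 12.9% fell in WT (3 to 5 genes in each case), and whether these differ from the shares of all genes was not tested. The split depends on the scaling. Centring each array on the median of all probe sets moved the all-gene median to -0.24 in both genotypes. Then 3 collagen genes rose and 11 fell in KO, where 643 of all 12654 genes rose and 4195 fell. In WT 1 rose and 10 fell, where 490 of all genes rose and 3939 fell. Centring on the median of the genes tested gave 5 and 2 in KO and 4 and 3 in WT. Of all genes, 1359 rose and 1362 fell in KO under that centring, and 1113 rose and 1097 fell in WT.

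Among 31 genes, 4 were called in both genotypes, 4 in WT alone and 4 in KO alone, and 28 had the same sign in both. Over all genes 11.9% were called in both, 7.22% in WT alone and 12.5% in KO alone, against 12.9% each for collagen genes, and 74% had the same sign, against 90.3%. Those counts do not show a difference between genotypes. The interaction of genotype and GH, which tests that difference, called 0 of 31 collagen genes by limma (0.933% of all genes, 0.624% higher and 0.308% lower). At an unadjusted p under 0.05 there were 3, a cutoff for which the share of all genes was not counted. For Col12a1 the interaction was 0.69 ± 0.254 (adjusted p = 0.322), and for Col7a1 it was -0.43 ± 0.215 (adjusted p = 0.51).

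**Figure D2:**
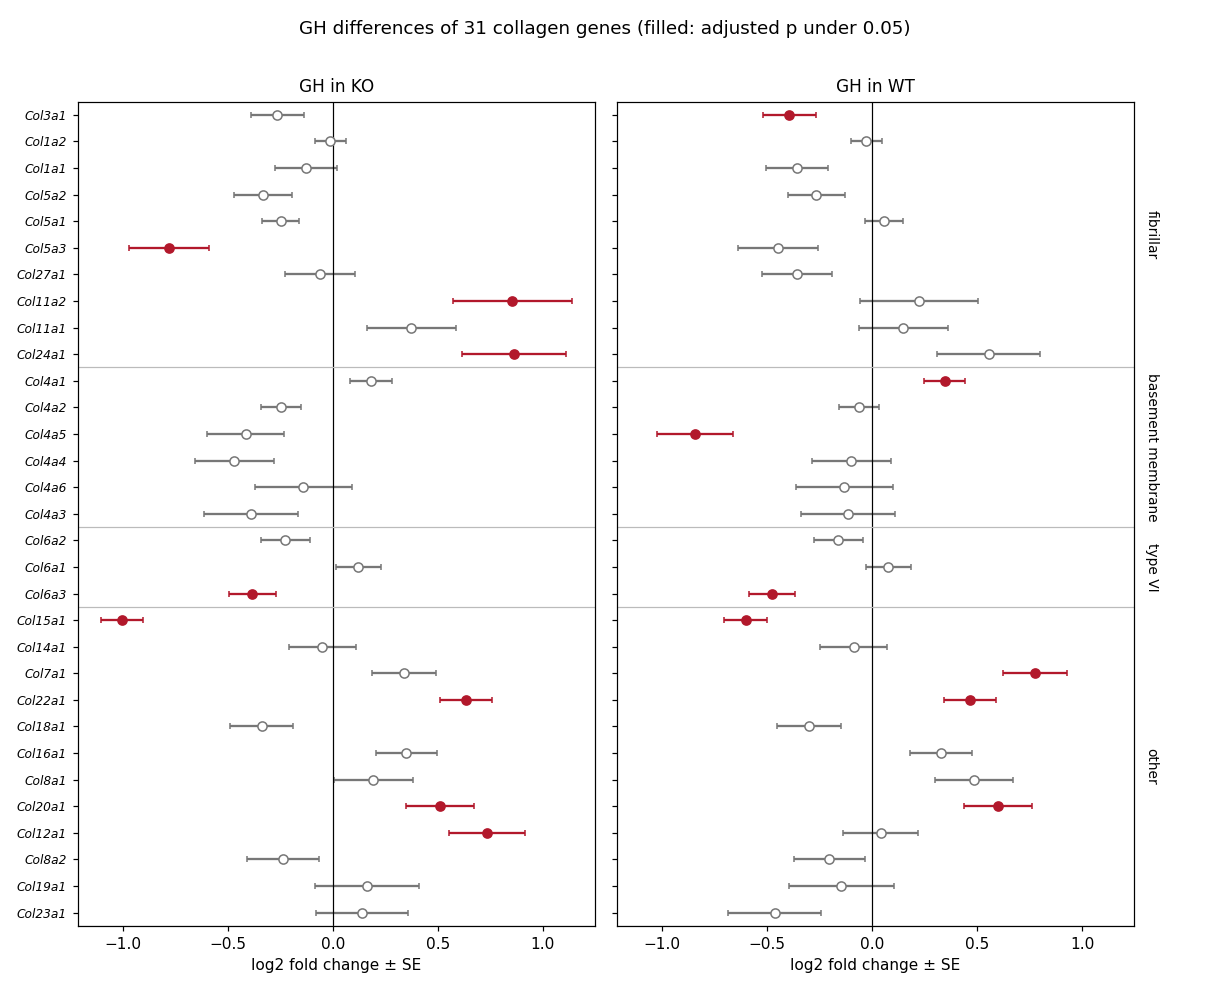
Log2 fold change with GH (x axis, bars are SE) of the 31 collagen genes tested, grouped by class down the page, in KO (left) and WT (right). Filled red points passed an adjusted p of 0.05: 8 in each genotype, in both directions.

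Fibrillar collagens had 2 genes higher and 1 lower with GH in KO muscle, and 0 higher and 1 lower in WT muscle, out of 10. Col3a1, the type III chain of soft tissues, had 20720, 18260 and 20260 in WT+GH muscle, against 26040, 23500 and 28460 in WT muscle. The groups did not overlap, as in 51.6% of collagen and 34.3% of all genes in WT, and Col3a1 fell by 0.39 ± 0.126 on the log2 scale (adjusted p = 0.0399). That call was lost in 12 of 26 alternatives, where adjusted p reached 0.141. In KO muscle Col3a1 had 19020, 17350 and 18290 with GH, against 27230, 21970 and 17510 without, and the lowest untreated animal lay among the treated ones (log2 fold change -0.26 ± 0.126, adjusted p = 0.142). The second, dimmer probe set of Col3a1 gave larger differences, -0.69 in KO and -0.74 in WT.

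Neither type I chain passed with GH. Col1a2 had log2 fold changes of -0.01 ± 0.0746 in KO and -0.03 ± 0.0746 in WT. Col1a1, the other type I chain, had 6523, 6751 and 6559 in KO+GH muscle, against 9389, 7134 and 5628 in KO muscle, and 6597, 5366 and 5304 in WT+GH muscle, against 7095, 6613 and 8471 in WT muscle. Its log2 fold changes of -0.13 ± 0.148 in KO and -0.36 ± 0.148 in WT did not pass (adjusted p = 0.58 and 0.107). The 2 probe sets of Col1a1 differed in sign, with -0.13 and 0.52 in KO and -0.36 and 0.19 in WT.

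Among the minor fibrillar collagens, called genes went both ways. Col5a3, a chain of type V collagen, had 713, 717 and 755 in KO+GH muscle, against 1714, 1440 and 823 in KO muscle, and fell by 0.78 ± 0.19 on the log2 scale (adjusted p = 0.00837). Its other probe set gave 0.08, and the mean of both lost the call (adjusted p = 0.346). Col5a1 and Col5a2, the other type V chains measured, had -0.25 ± 0.089 and -0.33 ± 0.136 in KO and did not pass (adjusted p = 0.0549 and 0.0903). The 3 probe sets of Col5a1 ran from -0.46 to -0.09 in KO. The second probe set of Col5a2 had the other sign, with 0.26 in KO and 0.21 in WT.

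Col11a2 and Col24a1 were the fibrillar genes that rose in KO muscle with GH. Col11a2, a chain of the cartilage type XI, had 280, 207 and 264 in KO+GH muscle, against 58.9, 166 and 190 in KO muscle (0.86 ± 0.281, adjusted p = 0.0377). Col24a1 had 121, 96.4 and 128 in KO+GH muscle, against 49.2, 44.7 and 62.0 in KO muscle (0.86 ± 0.247, adjusted p = 0.0196). The treated and untreated values did not overlap for either gene, as in 45.2% of collagen and 44.4% of all genes in KO. Both are dim, and Col24a1 had a mean log2 value of 6.55. Genes with a mean log2 value under 7 had a median GH difference of 0.08 in both genotypes, while those from 7 to 8 had -0.03 in KO and -0.05 in WT. Col11a2 lost its call in 8 of 26 alternatives and Col24a1 in 4 of 24. Col24a1 also failed the filter when it was set over probe sets with a single symbol.

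**Figure D3:**
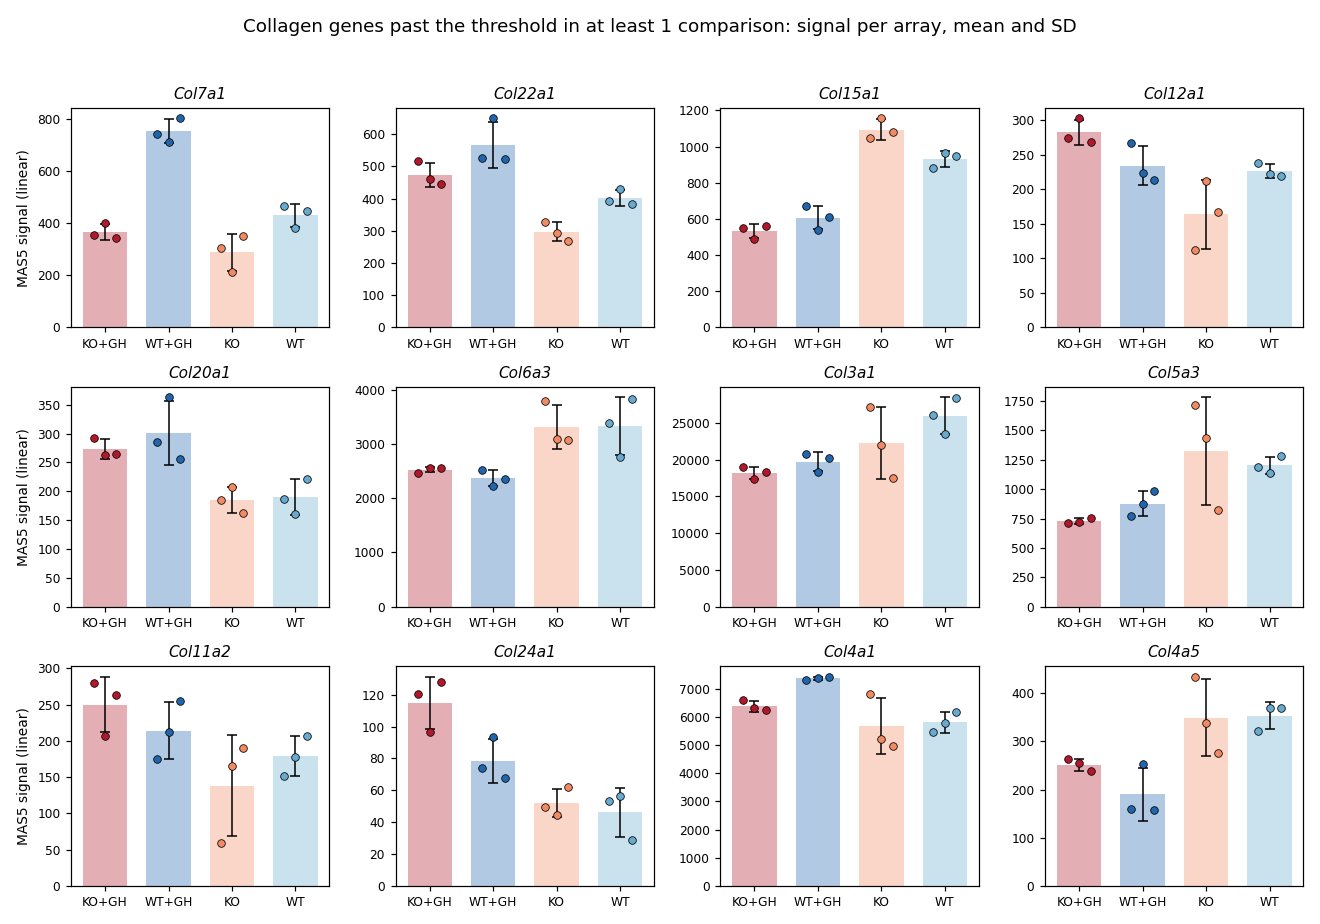
MAS5 signal on a linear axis for the 12 collagen genes past the threshold in at least 1 comparison, in KO+GH, WT+GH, KO and WT muscle. Points are arrays, bars means and error bars SD (n = 3); Col7a1 is the gene whose KO+GH points, at 342 to 403, lie clear of WT+GH points at 713 to 803.

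In the basement membrane class, 1 of 6 genes rose and 1 fell with GH in WT muscle, and 0 of 6 passed in KO muscle. Col4a1 rose by 0.35 ± 0.0991 on the log2 scale in WT (adjusted p = 0.0245). Its signals were 7305, 7396 and 7431 in WT+GH muscle, against 5454, 5789 and 6186 in WT muscle. The other probe set of Col4a1 gave -0.15, and the call was lost in 8 of 26 alternatives. Col4a2 had 4288, 3898 and 3624 in WT+GH muscle, against 3918, 4115 and 4298 in WT muscle, which overlap (-0.06 ± 0.0951, adjusted p = 0.685). In KO muscle neither passed, with 0.18 ± 0.0991 for Col4a1 and -0.25 ± 0.0951 for Col4a2 (adjusted p = 0.2 and 0.0729).

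Col4a5, an X-linked type IV chain known from Alport syndrome, had 159, 254 and 158 in WT+GH muscle, against 322, 370 and 370 in WT muscle. It fell by 0.84 ± 0.182 on the log2 scale (adjusted p = 0.00495), a call that held in 26 of 26 alternatives. In KO muscle it had 263, 254 and 238 with GH, against 435, 338 and 276 without, which did not overlap and did not pass (-0.41 ± 0.182, adjusted p = 0.113). Its second probe set gave -0.26 in WT and -0.22 in KO. Col4a3, Col4a4 and Col4a6, the remaining type IV chains, had log2 fold changes of -0.47 to -0.14 in KO and -0.13 to -0.10 in WT, none past the threshold. The second, dimmer probe set of Col4a3 gave -0.53 in KO and -1.22 in WT, and 0.80 for KO+GH against WT+GH. In WT it had 21.0, 8.2 and 47.4 with GH, against 70.7, 125 and 71.9 without. The probe sets of Col4a4 ran from -0.56 to -0.47 in KO and from -0.10 to 0.11 in WT.

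In the type VI class, Col6a3 fell in both genotypes while Col6a1 and Col6a2 did not pass in either. Col6a3 encodes the long chain of the filament. It had 2472, 2552 and 2552 in KO+GH muscle, against 3787, 3098 and 3066 in KO muscle (-0.38 ± 0.111, adjusted p = 0.0205). In WT muscle it had 2517, 2229 and 2359 with GH, against 3393, 2768 and 3825 without (-0.48 ± 0.111, adjusted p = 0.00781). Treated and untreated values did not overlap in either genotype. The call in WT held in 26 of 26 alternatives and that in KO was lost in 6 of 26. Col6a1 had 3991, 4077 and 4024 in KO+GH muscle, against 4533, 3487 and 3211 in KO muscle, and 4207, 3922 and 4002 in WT+GH muscle, against 3898, 3479 and 4134 in WT muscle. Its ranges overlapped, with log2 fold changes of 0.12 ± 0.107 in KO and 0.08 ± 0.107 in WT. Col6a2 had 6207, 6232 and 6186 in KO+GH muscle, against 9046, 7161 and 5912 in KO muscle, and 7204, 6067 and 6449 in WT+GH muscle, against 7403, 7045 and 7544 in WT muscle (-0.23 ± 0.117 and -0.16 ± 0.117, not past).

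Among the untreated KO animals, KO 1 had the highest of the 3 KO values in 6 of 6 basement membrane and 3 of 3 type VI genes tested, against 32.1% of all genes. The same held in 4 of 10 fibrillar genes, 3 of 12 other collagens and 3 of 10 fibroblast markers. KO 3 had the lowest in 3 of 3 type VI genes, against 35.5% of all genes, and in 7 of 10 fibroblast markers. For basement membrane, fibrillar and other collagens it was the lowest in 3 of 6, 4 of 10 and 4 of 12. The class mean of type VI genes was 11.93 to 12.40 in KO muscle on the log2 scale, against 11.95 to 11.98 in KO+GH muscle. Without KO 3, 8 collagen genes were lower with GH in KO in place of 3, and without WT 1 there were 5. With both left out there were 10, as with array quality weights. The shares of all genes called lower in these fits were not counted, so these numbers cannot be set beside them.

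**Figure D4:**
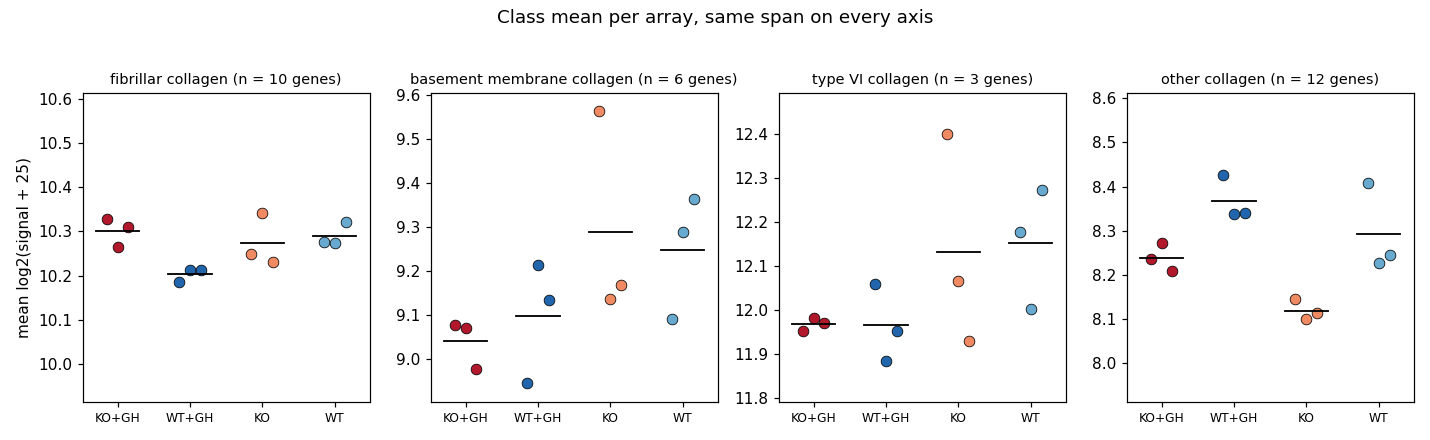
Mean log2(signal + 25) over the tested genes of each class on each array (points) and the group mean (lines), for KO+GH, WT+GH, KO and WT muscle, with the same span on each y axis. Basement membrane and type VI means spread most among the KO animals, and the type VI means of KO run from 11.93 to 12.40.

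Among the other collagens, Col15a1 had the smallest adjusted p of any collagen gene with GH. It encodes a collagen of the basement membrane zone in muscle and capillaries. In KO muscle it had 553, 488 and 562 with GH, against 1046, 1157 and 1078 without. WT muscle gave 671, 541 and 611 with GH, against 883, 965 and 949 without. Every treated value lay under every untreated one. In KO, Col15a1 fell by 1.002 ± 0.101 on the log2 scale (SE, 2-fold lower, adjusted p = 7.18e-06). The value in WT was -0.60 ± 0.101 (adjusted p = 0.000829). Both calls held in 26 of 26 alternatives. The interaction was -0.40 ± 0.143 (adjusted p = 0.309). Col18a1, its closest relative in structure and the source of endostatin, had -0.34 ± 0.151 in KO and -0.30 ± 0.151 in WT (adjusted p = 0.118 and 0.184).

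The window of Col15a1, chr4:47207762-47208061 on the plus strand of GRCm38.p6 by RefSeq, is shown because Col15a1 had the smallest adjusted p with GH. It held none of the 4 motifs searched, so no letters are in capitals.
Col15a1: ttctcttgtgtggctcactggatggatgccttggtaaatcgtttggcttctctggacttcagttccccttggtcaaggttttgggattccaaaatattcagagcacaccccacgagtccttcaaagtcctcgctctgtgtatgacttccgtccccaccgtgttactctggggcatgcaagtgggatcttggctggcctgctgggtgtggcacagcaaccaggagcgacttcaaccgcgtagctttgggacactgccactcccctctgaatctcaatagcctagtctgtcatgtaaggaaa

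Col7a1 rose with GH in WT muscle by 0.78 ± 0.152 on the log2 scale (adjusted p = 0.00254), with the WT+GH and WT values given for the genotype comparison. The KO value of 0.34 ± 0.152 missed the threshold (adjusted p = 0.118), but passed at 0.0352 without KO 3 and at 0.0118 with array quality weights. The call in WT held in 26 of 26 alternatives. It shares the WT+GH arrays with the genotype comparison under GH, so the 2 calls are not independent.

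Col22a1 was called higher with GH in both genotypes. It had 515, 460 and 446 in KO+GH muscle, against 328, 292 and 269 in KO muscle (0.64 ± 0.122, adjusted p = 0.00168). For WT muscle the signals were 526, 649 and 522 with GH, against 391, 429 and 383 without (0.47 ± 0.122, adjusted p = 0.0151). The groups did not overlap in either genotype. Its probe set ends in _s_at, a mark of probes shared between transcripts, and without such probe sets the WT value was -0.05 (adjusted p = 0.872) and the KO value no longer passed (adjusted p = 0.232).

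Col12a1 had 275, 303 and 269 in KO+GH muscle, against 112, 212 and 167 in KO muscle (0.74 ± 0.179, adjusted p = 0.00811). Its 4 probe sets ran from -0.45 to 0.74, and their mean gave an adjusted p of 0.971. In WT muscle it had 267, 223 and 213 with GH, against 238, 222 and 219 without, which overlap (0.04 ± 0.179). Col20a1, a further relative of the surface collagens, had 293, 262 and 265 in KO+GH muscle, against 185, 208 and 163 in KO muscle (0.51 ± 0.162, adjusted p = 0.0323). The WT signals were 285, 363 and 255 with GH, against 186, 161 and 222 without (0.60 ± 0.162, adjusted p = 0.018). Its call was lost in 8 of 26 alternatives in KO and 3 of 26 in WT, and its 4 probe sets ran from -0.07 to 0.90 in KO and 0.31 to 0.79 in WT. Col14a1, which lies on type I fibrils, had 502, 578 and 568 in KO+GH muscle, against 684, 495 and 540 in KO muscle. In WT muscle it had 624, 660 and 717 with GH, against 952, 587 and 638 without. Its ranges overlapped with GH in both genotypes (-0.05 ± 0.159 and -0.09 ± 0.159).

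The remaining 7 tested collagens passed in none of the 6 comparisons. With GH in KO they ran from -0.24 for Col8a2 to 0.38 for the fibrillar Col11a1, with Col27a1, Col23a1, Col19a1, Col8a1 and Col16a1 between them. In WT they ran from -0.46 for Col23a1, a transmembrane collagen, to 0.49 for Col8a1, a vessel wall collagen. Treated and untreated values did not overlap for Col11a1 and Col23a1 in KO, or for Col23a1, Col16a1 and Col8a1 in WT.

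For the lists that follow, the shares of all genes called with GH are those given for the collagens: 8.93% higher and 15.4% lower in KO, and 7.33% higher and 11.8% lower in WT. In the folding and hydroxylation list 0 of 15 tested genes passed between genotypes in either treatment. With GH, Crtap, part of the prolyl 3-hydroxylation complex, was the 1 gene of 15 called in KO muscle, where it fell by 0.50 ± 0.101. In WT muscle 2 of 15 fell, namely Crtap by 0.36 ± 0.101 and P4ha1, a prolyl 4-hydroxylase subunit, by 0.40 ± 0.133. The WT call of P4ha1 was lost in 15 of 26 alternatives and that of Crtap in 5. The medians of the list with GH were -0.08 in KO and 0.01 in WT, beside -0.07 and -0.06 for all genes. Serpinh1, the collagen chaperone HSP47, did not pass (-0.30 ± 0.18 in KO and -0.48 ± 0.18 in WT).

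In the processing and cross-linking list, 2 of 8 genes fell with GH in KO, while in WT 2 fell and 1 rose. Loxl1, a lysyl oxidase relative, had 868, 948 and 1009 in KO+GH muscle, against 2269, 2021 and 1636 in KO muscle. In WT muscle it had 1357, 1199 and 1117 with GH, against 2613, 1986 and 2090 without. It fell by 1.04 ± 0.128 in KO and 0.85 ± 0.128 in WT (adjusted p = 4.64e-05 and 0.000368), though its other probe set gave 0.10 in WT. Pcolce2, an enhancer of procollagen cleavage, fell by 0.41 ± 0.114 in KO and 0.48 ± 0.114 in WT. Lox, the founding lysyl oxidase, rose by 0.35 ± 0.102 in WT, but lost that call in 7 of 26 alternatives, and its 3 probe sets ran from -0.75 to 0.35. No gene of this list passed between genotypes.

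In the breakdown list, 3 of 11 genes rose and 4 fell with GH in KO, and 1 rose and 3 fell in WT. The list joins proteases and their inhibitors, so these counts give no direction for breakdown. Timp1, an inhibitor of matrix metalloproteinases, had 282, 300 and 310 in KO+GH muscle, against 107, 104 and 60.9 in KO muscle. It rose by 1.505 ± 0.199 (adjusted p = 8.79e-05), and in WT it had 0.40 ± 0.199 (adjusted p = 0.181). Timp3, also an inhibitor, rose by 0.57 ± 0.134 in KO and 0.71 ± 0.134 in WT, while the inhibitor Timp2 fell by 0.62 ± 0.12 in WT. Mmp9, a gelatinase, fell by 0.95 ± 0.174 in KO, and Fap, a fibroblast protease, fell by 0.61 ± 0.126 in KO and 0.56 ± 0.126 in WT. Collagen receptors gave 0 of 6 past limma's threshold in each of the 4 comparisons of 2 groups, among them the tyrosine kinase Ddr2 (-0.14 ± 0.108 in KO and -0.01 ± 0.108 in WT with GH).

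In the list of matrix proteins that bind collagen, 7 of 16 genes fell and 1 rose with GH in KO, and 6 fell in WT, with medians of -0.26 and -0.37 beside -0.07 and -0.06 for all genes. Lum, a proteoglycan that spaces fibrils, had 2229, 2197 and 2292 in KO+GH muscle, against 3334, 3278 and 3226 in KO muscle, and fell by 0.54 ± 0.0866. It fell in WT muscle as well, with -0.44 ± 0.0866 (limma adjusted p = 0.00247). Tnxb, the matrix protein tenascin X, fell by 1.27 ± 0.192 in KO. It was also called lower in WT, at -0.84, in 26 of 26 alternatives. Lama2, the laminin chain of the muscle basement membrane, fell by 0.62 ± 0.0926 in KO and 0.51 ± 0.0926 in WT. None of the 16 passed between genotypes in either treatment.

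Among signals that induce matrix, with GH 4 of 11 genes were higher and 1 lower in KO+GH than in WT+GH muscle, where 2.42% of all genes were higher and 2.11% lower. Without GH 1 of 11 was higher in KO than in WT, where 0.774% of all genes were. That gene was Pdgfb (0.77 ± 0.178, adjusted p = 0.0464), whose call was lost in 14 of 26 alternatives, while with GH Smad7, an inhibitor of the TGF-beta pathway, lost its call in 5. Tgfb2, a transforming growth factor, had 1706, 1913 and 1773 in KO+GH muscle, against 658, 618 and 657 in WT+GH muscle (1.44 ± 0.154, adjusted p = 3.35e-05). Without GH it had 407, 481 and 499 in KO muscle, against 325, 538 and 324 in WT muscle, which overlap (0.25 ± 0.154, adjusted p = 0.607). Pdgfb, a platelet-derived growth factor chain, had 1501, 1470 and 1439 in KO+GH muscle, against 503, 588 and 620 in WT+GH muscle (1.33 ± 0.178, adjusted p = 0.000282).

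Ccn2, the connective tissue growth factor and a known target of TGF-beta, was lower in KO+GH muscle, with 995, 1100 and 1000 against 1513, 1390 and 1290 in WT+GH muscle (-0.43 ± 0.0865, adjusted p = 0.00759). Tgfb1 did not pass between genotypes (0.05 ± 0.127 with GH). It fell with GH by 0.79 ± 0.127 in KO and 0.81 ± 0.127 in WT, while its receptor Tgfbr1 rose by 0.84 ± 0.106 and 0.77 ± 0.106. The other probe set of Tgfb1 gave 0.26 in WT.

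**Figure D5:**
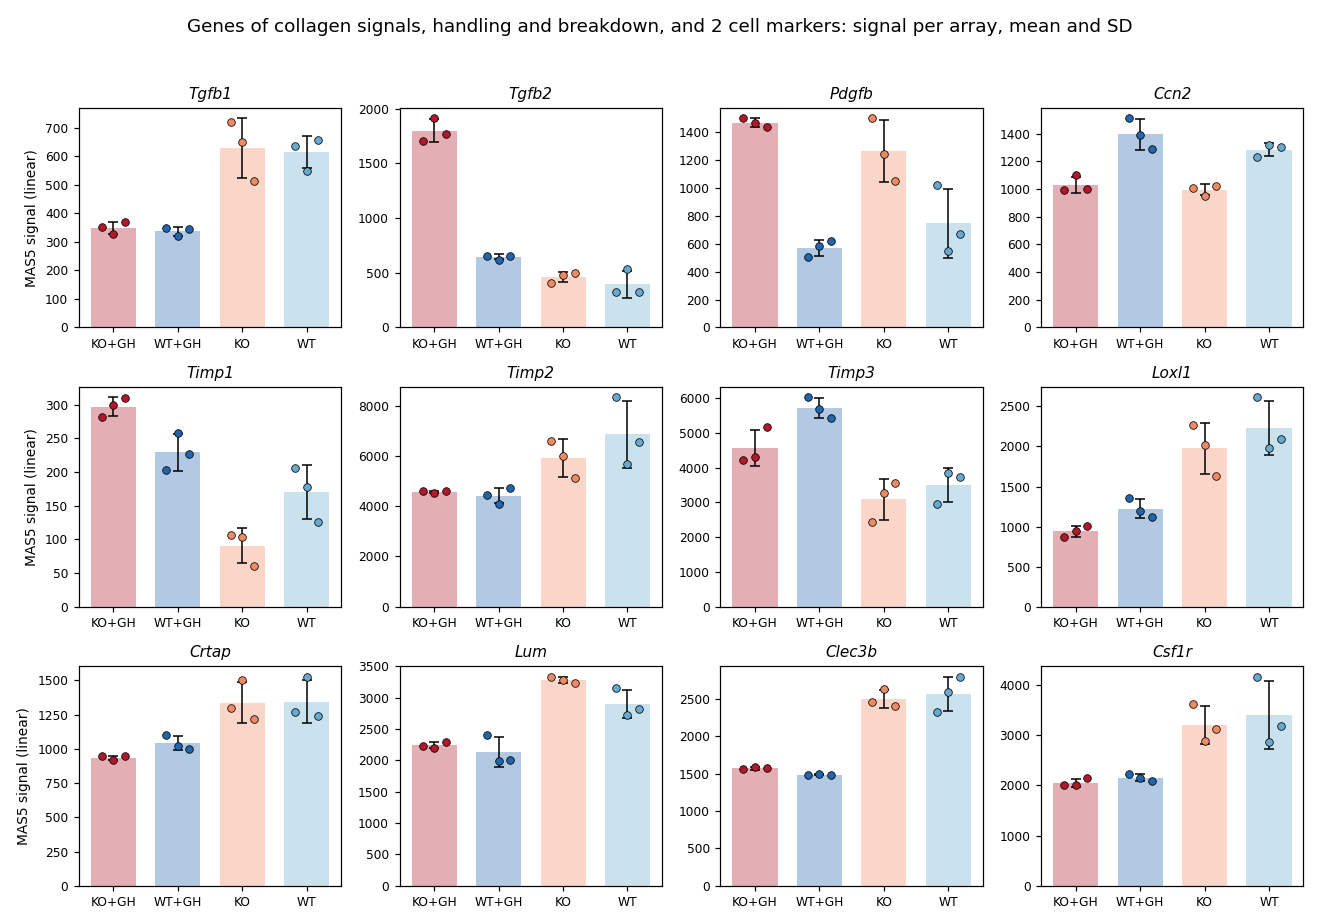
MAS5 signal on a linear axis of 12 genes of matrix-inducing signals, collagen handling, matrix binding and cell markers, in KO+GH, WT+GH, KO and WT muscle (points are arrays, bars means, error bars SD, n = 3). Tgfb2 stands highest in KO+GH muscle, at 1706 to 1913, while Loxl1, Lum, Clec3b and Csf1r lie lower with GH in both genotypes.

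Cell markers moved with GH as well. Of 10 fibroblast markers 6 fell in KO and 5 in WT, led by Clec3b, which fell by 0.66 ± 0.0794 in KO and 0.77 ± 0.0794 in WT. Dcn and Gsn, 2 of the 6 in KO, kept their calls in 14 and 22 of 26 alternatives. With the mean of all probe sets they turned to 0.14 and 0.106. The summed signal of the 10 markers was 65230 to 66850 in KO+GH muscle, against 80210 to 92210 in KO muscle, and 64970 to 80360 in WT+GH muscle, against 83800 to 85300 in WT muscle. Dcn and Gsn, with means of 24670 and 27430 in KO+GH muscle, made up most of this sum. No fibroblast marker was at 0, and the dimmest, Dpp4, averaged 133 in KO+GH, 128 in WT+GH, 208 in KO and 295 in WT muscle. Macrophage markers fell in 5 of 6 genes in KO and 3 of 6 in WT, with summed signals of 6414 to 6467 in KO+GH, against 8330 to 11820 in KO, and 6332 to 6549 in WT+GH, against 8745 to 14860 in WT. Cd163 of that list was not called and went the other way. Its mean signal was 394 with GH and 324 without in KO, and 462 and 384 in WT. Adipocyte markers fell in 3 of 4 genes in each genotype, with summed signals of 11550 to 11850 in KO+GH, against 16880 to 29160 in KO, and 10010 to 12700 in WT+GH, against 17840 to 20930 in WT. The remaining adipocyte marker, Lep, was not called and went the other way. Its mean signal was 261 with GH and 180 without in KO, and 251 and 176 in WT.

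Of 7 smooth muscle and pericyte markers, 6 were higher in KO and 3 in WT, while Cnn1 had -0.17 in WT. Second probe sets differed, with -0.27 in KO and -1.01 in WT for Cspg4 and -0.05 and -0.08 for Pdgfrb. Their summed signal was 21560 to 22350 in KO+GH muscle, against 15480 to 16570 in KO muscle, and 20540 to 23030 in WT+GH, against 15000 to 18020 in WT. Tendon markers rose in 2 of 5 genes in KO and 1 of 5 in WT, and the cartilage factor Sox9 rose by 1.33 ± 0.234 in KO (its 3 probe sets ran from -0.14 to 1.33). Muscle fibre markers gave 1 of 8 higher and 5 of 8 lower in KO and 0 of 8 past the threshold in WT by limma. Among the 5, Actn3, Mb and Myh4 turned sign in at least 1 alternative, and Actn3 kept its call in 12 of 26. Of all genes with a mean log2 value over 12, the level of these markers, 27% fell with GH in KO. Of 4 Schwann cell markers 2 rose in KO and 1 in WT. S100b of that list was not called and went the other way, with means of 209 with GH and 270 without in KO. In WT its means were 170 and 190. Of 2 hepatocyte markers 1 rose in WT. Of 8 endothelial markers 1 rose and 3 fell in KO, and 2 rose and 3 fell in WT. The part of any of these cell types in the collagen differences was not tested. Between genotypes, Sox9 (1.40 ± 0.234), the pericyte marker Cspg4 (0.60 ± 0.135) and the tendon marker Kera (0.47 ± 0.112) were higher in KO+GH than in WT+GH muscle. Without GH the adipocyte marker Retn was higher in KO than in WT (0.87 ± 0.158). Of 10 fibroblast markers 0 passed limma's threshold in either treatment, and 1 had an effect past it averaged over both, Pi16 (-0.39 ± 0.0903, adjusted p = 0.0167).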

How the data were processed

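Total RNA was the source material, biotin was the label, and 12 one-colour Affymetrix arrays were used. The authors deposited MAS5 signal, a linear intensity for 45101 probe sets, and MAS5 is named per the submitters' processing notes without a version. The 2% trimmed mean was 500 on each array. With 3 arrays in a group, their number sets how precise a value can be.

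Values were log2(signal + 25), 25 being the pooled 25th percentile, rounded. Control probe sets (64) and those with several symbols (932) or none (9160) were left out. Genes took their brightest probe set by mean log2 value and were kept above the 40th percentile of non-control probe set means. limma (version 3.58.1, with R 4.3.3 and statmod 1.5.0) fitted 4 group means over 12 arrays (8 residual degrees of freedom; eBayes with trend and robust), two-sided, Benjamini-Hochberg over 12654 genes, threshold 0.05. "Rose" and "fell" mean past it, and ± is SE unless SD is named. The method was tested on simulated data.

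Members and lists were chosen with earlier results of these data known. The fit was also settled after collagen results were seen. A first form set the filter over probe sets with 1 symbol and chose probe sets by mean linear signal (11813 genes, 30 collagens). It called 0, 1, 8 and 7 collagen genes for KO against WT without GH, with GH, GH in WT and GH in KO. A second form, with probe sets still chosen by linear signal (12653 genes), called 0, 1, 8 and 8, as does the form reported, which was taken because it is the processing used earlier on these data. The call that differs from the first form is Col24a1 with GH in KO. The planned centring of arrays on their median was first run over all probe sets. After its large effect was seen it was redefined over the genes tested, the form used earlier on these data, and both are reported.

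Named genes are all collagens and, per list and comparison, up to 4 members with the smallest p, or 2 as values where none passed. Serpinh1, Smad7, Cnn1, Lep, Cd163, S100b, Dcn, Gsn, Actn3, Myh4 and, between genotypes, Pi16 lie outside this rule. They were chosen after their values were seen. Promoter windows are RefSeq's, 250 bases before to 50 after a start.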

Additional observations from a re-analysis of the deposited data

Results flagged for a closer look

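Tgfb2 differed between genotypes in its GH response: the log2 fold change with GH was 1.91 ± 0.154 in KO and 0.71 ± 0.154 in WT, and the interaction was 1.2 ± 0.218 (limma adjusted p = 0.0112). The call was lost in 1 of 25 alternatives, eBayes without trend or robust (adjusted p = 0.0555). Its 4 probe sets ran from 0.58 to 1.91 in KO and from -0.27 to 0.71 in WT. No collagen gene met the same test, with 0 of 31 past the threshold for the interaction by limma. At an unadjusted p under 0.05 there were 3, with no share of all genes counted for that cutoff.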

How the results depend on the processing

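Results were recomputed under 26 alternatives, 12 of which leave out 1 array. Of the others, 3 were added after the data were seen: centring on the median of all probe sets, the filter over probe sets with 1 symbol, and probe sets chosen by linear signal. Of 19 called collagen results 7 kept their call throughout: Col7a1 in 3 comparisons, Col15a1 in 2, and Col4a5 and Col6a3 with GH in WT. The other 12 lost it somewhere, and 24 of 167 uncalled results were called somewhere. Of 131 called results of the other lists, 67 kept their call throughout and 64 lost it in at least 1 alternative. The sign of a value uncalled in both settings was not read; 210 of 4597 values with an unchanged call had the other sign.

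Counts of collagen genes that moved by over 1.5 times were these. Calls over all genes were counted only for quantile normalization and for the centrings, so the other changes have no all-gene share beside them. KO against WT without GH went to 1 lower with array weights, against 0, and KO against WT with GH to 3 lower with only the arrays compared, against 1. With GH in WT, 2 were higher with the mean of all probe sets, against 4. With GH in KO, 3 were higher with quantile normalization, against 5, and 10 lower with array weights and 10 without WT 1 and KO 3, against 3. The mean genotype effect had 1 lower, against 2, with no filter, with the mean of all probe sets, without _x_at and _s_at probe sets and without WT 1 and KO 3. Leaving out 1 array gave 0 to 1 lower and 0 to 0 higher without GH, 1 to 1 lower with GH, 1 to 4 higher and 3 to 6 lower with GH in WT, 2 to 5 higher and 2 to 8 lower with GH in KO, and 1 to 3 lower for the mean genotype effect. The lowest count of higher genes with GH in WT came without WT_GH 2 (1) and then WT 2 (2), and with GH in KO without KO_GH 1 or KO_GH 3 (2 each) and then KO_GH 2 (3).

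Scaling mattered for GH. Centring on all probe sets, the form first run for the planned centring, gave 1 higher and 10 lower with GH in WT, 3 higher and 11 lower with GH in KO, and 1 lower for the mean genotype effect. The all-gene medians were then -0.24 in WT and -0.24 in KO, and 11.1% and 13.3% of called genes were higher, against 38.4% and 36.7%. Of all genes, 490 were higher and 3939 lower in WT, and 643 higher and 4195 lower in KO. Centring on the genes tested gave 50.4% and 49.9%, with 4 higher and 3 lower collagens in WT and 5 and 2 in KO. So how many collagens fell with GH depends on the scaling, as it does for all genes, while Col15a1 fell and Col7a1 rose in WT under each.

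Directions turned in 8 cases. Without _s_at probe sets Col22a1 was -0.048 with GH in WT. With the mean of all probe sets Lox was -0.126 in WT, and in KO Dcn was 0.14, Gsn 0.106, Mb 0.023 and Myh4 0.131. With quantile normalization Actn3 was 0.094 and Myh4 0.013 in KO. The causes were not tested. Class medians moved by over 1 SD in 38 of 240 cases. No paired analysis was possible because the labels carry no replicate numbers shared between groups.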
